A study of Homo sapiens with 6 samples.

Results

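The genes described here are 10 members of the S100 calcium-binding family in the human glioblastoma line U251: S100A1, S100A2, S100A3, S100A4, S100A6, S100A10, S100A11, S100A13, S100A16 and S100B. They were found by gene symbol among 42307 genes in each deposited table, and each symbol named 1 row. RNA sequencing had been done on wild-type U251 cells in 2 groups, 3 libraries transfected with a STING overexpression plasmid and 3 with a negative control plasmid, each at 1 ug per well and collected on day 3. STING is the adaptor protein that relays the sensing of cytosolic DNA. No promoter or sequence of the plasmids and no share of transfected cells was given in the sources used here. Whether the 3 libraries of a group came from separate cultures is not labelled, so the spread behind each p-value may be technical. The 10 names were chosen by family membership and selected on tables whose measured counts and fold changes in this same comparison were already known. Their differences are therefore a description of these libraries, and the adjusted p-values, taken over all 21679 tested genes, are printed for scale and support no claim about the family.

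S100 proteins are small proteins that bind calcium through EF-hands, a helix-loop-helix fold, and most work as dimers. On binding calcium they open a hydrophobic face that grips a target protein, such as an annexin, a myosin heavy chain or p53. Some are also released from cells and act on surface receptors such as AGER. In the brain S100B is a classical marker of astrocytes, and several S100A genes are abundant in glioma cells. Most human S100 genes lie in a cluster on the long arm of chromosome 1, where neighbouring gene models partly overlap.

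Of the 10 genes 9 lie on chromosome 1 and S100B lies on chromosome 21. In the coordinates of the deposited tables, which match GRCh38, S100A1 spans 153627926 to 153632039 on the plus strand of chromosome 1, and S100A16 spans 153606886 to 153613137 on the minus strand. These were the members with an adjusted p under 0.05. S100A13, on the minus strand from 153618787 to 153631360, overlaps S100A1 on the opposite strand from 153627926 to 153631360, which is most of the S100A1 span. The stretches of their promoters that lie outside annotated exons are shown because S100A1 and S100A16 carry the changes below, with S100A11 as an abundant member for comparison. They come from RefSeq (GRCh38.p14), read 5′ to 3′ on the strand of the gene, and the capitals mark CG dinucleotides. Each precedes a RefSeq start of its gene. The S100A1 stretch nonetheless lies inside the deposited spans of S100A1 and S100A13. The S100A11 stretch lies inside the deposited S100A11 span, 152032506 to 152047907.
S100A1, chr1:153628249-153628383, plus strand: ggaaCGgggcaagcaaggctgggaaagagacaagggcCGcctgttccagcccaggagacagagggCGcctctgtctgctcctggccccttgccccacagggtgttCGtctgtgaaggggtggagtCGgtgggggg
S100A16, chr1:153613146-153613387, minus strand: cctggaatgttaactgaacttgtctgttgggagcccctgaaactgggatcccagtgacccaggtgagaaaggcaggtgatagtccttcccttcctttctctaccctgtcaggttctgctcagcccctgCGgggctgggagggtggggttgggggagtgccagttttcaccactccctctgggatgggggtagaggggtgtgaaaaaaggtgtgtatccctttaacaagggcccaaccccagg
S100A11, chr1:152037036-152037254, minus strand: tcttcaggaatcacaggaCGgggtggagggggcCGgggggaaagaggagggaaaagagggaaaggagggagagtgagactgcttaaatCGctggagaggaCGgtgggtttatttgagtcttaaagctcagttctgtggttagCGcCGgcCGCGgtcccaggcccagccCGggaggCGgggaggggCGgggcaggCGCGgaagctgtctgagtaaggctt

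The S100A1 stretch of 135 bases, left after 115 exonic bases were taken out of the window, holds 5 CG dinucleotides. The S100A16 stretch of 242 bases holds 1 and the S100A11 stretch of 219 bases holds 13. Of the members 9 matched the RefSeq promoter table with 13 windows, and S100B had no entry. Over the full 250 bases before the start, S100A6 and S100A10 had 24 CG dinucleotides each, against a median of 11 over all 35116 windows, and the first S100A16 window had 1. On either strand the GC box GGGCGG was found in windows of 6 members and in 42.6% of all windows. The AP-1 letters TGANTCA, with N for any base, were found for S100A2 and S100A3 and in 6.57% of all windows. The core of the interferon-stimulated response element (GAAA, any 2 bases, GAAA) and the NF-kB letters (GGG, any 2 bases, TTTCC) were found in 0 of the 13 member windows, and in 3.02% and 1.73% of all windows. These matches describe letters within 250 bases and say nothing of binding.

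The libraries held between 71498790 and 76566375 counts, at which 3 counts equal 0.0392 to 0.0420 CPM (counts scaled to a common library size with TMM factors), a floor for counting error only. STING1, the gene on the plasmid, was at 52.8 ± 4.79 CPM with the STING plasmid and 34.8 ± 3.15 CPM with the control plasmid (SD, n = 3 each, edgeR adjusted p = 0.00221). Of 11 astrocyte and glioma markers that could be found, 9 averaged at least 1 CPM, among them VIM, NES, CD44, SOX2, GFAP and EGFR, while OLIG2 averaged 0.182 CPM with the STING plasmid and 0.188 CPM with the control plasmid. The summed level of these markers was 4059 to 4200 CPM with the STING plasmid and 4304 to 4464 CPM with the control plasmid. Most of this sum was VIM, at 2626 ± 57.3 and 2787 ± 37.1 CPM in the same order (edgeR adjusted p = 0.320). CD44 came next, at 913 ± 11.6 and 942 ± 24.9 CPM (edgeR adjusted p = 0.689). The RNA came from whole cultures, so fewer expressing cells and less RNA per cell cannot be told apart.

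S100A6 was the most abundant member in all libraries. On the deposited FPKM scale, which is per length of gene, S100A6 (calcyclin, a partner of CACYBP) averaged 652 ± 45.8 with the STING plasmid and 654 ± 42.2 with the control plasmid (SD, n = 3 each), which ranked it 26th and 31st of all 42307 genes. S100A11, a partner of annexin A1, came next at 348 ± 10.4 and 365 ± 16.9 FPKM, and S100A10, the partner of annexin A2, followed at 147 ± 5.92 and 148 ± 5.84 FPKM, in the same order of groups. These genes made up between 88.5% and 89.5% of the summed FPKM of the 10 members in every library.

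S100A16 averaged 69.7 ± 3.99 FPKM with the STING plasmid and 81.3 ± 2.14 FPKM with the control plasmid. S100A2 was at 41.8 ± 0.440 and 41.4 ± 5.25 FPKM and S100A13 at 16.9 ± 1.88 and 16.5 ± 0.798 FPKM, with the STING plasmid given before the control plasmid. S100A4 and S100A3 were lower still, at 5.15 ± 1.02 and 2.48 ± 0.530 FPKM with the STING plasmid, against 6.89 ± 1.12 and 2.60 ± 0.930 FPKM with the control plasmid. From S100A6 down to S100A3 no gene overlapped its neighbour in this order in either group. S100A1 and S100B closed the order. They overlapped with the control plasmid, at 0.117 ± 0.0208 and 0.120 ± 0.0458 FPKM, whereas with the STING plasmid S100A1 (0.387 ± 0.0153 FPKM) lay above S100B (0.0433 ± 0.0231 FPKM) without overlap. The FPKM of S100A1 rests on an implied length of 3361 bases. The longest annotated S100A1 transcript has 2621 bases.

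**Figure D1:**
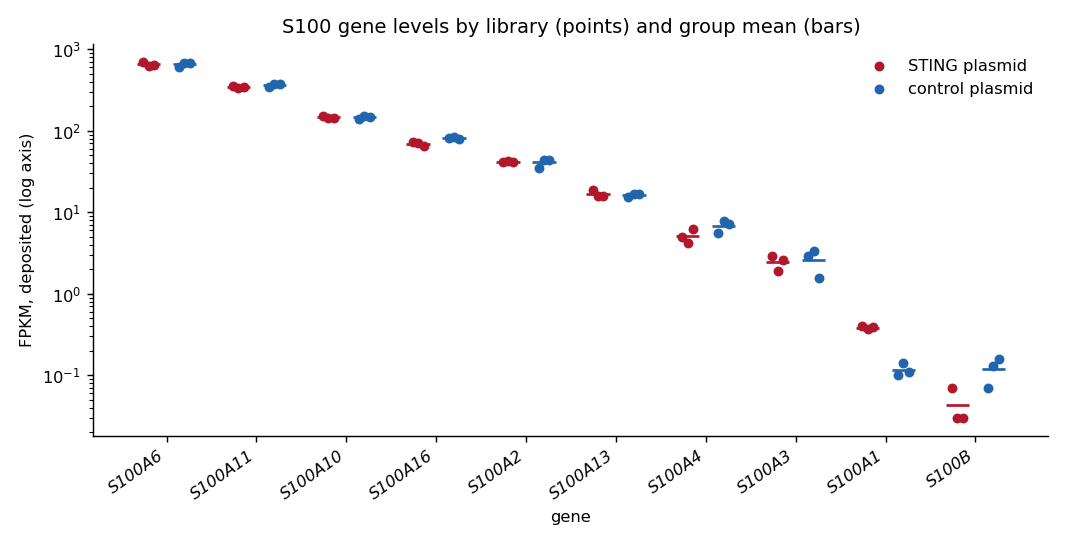
Deposited FPKM (log axis) of the 10 S100 genes, with a point per library and a bar at the mean of 3 libraries, for the STING plasmid (red) and the control plasmid (blue). The levels run from 654 FPKM for S100A6 with the control plasmid to 0.0433 FPKM for S100B with the STING plasmid, and the groups part most visibly at S100A1.

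With the STING plasmid S100A1 rose and S100A16 fell, while the other 8 genes did not pass the test. Over all 21679 tested genes 1.49% were called in either direction, 0.604% higher and 0.890% lower. Since the names were listed with this comparison known, nothing is read from 2 of 10 against that share. The groups did not overlap for 3 members, S100A1, S100A16 and S100B, and they did not overlap for 19.9% of all tested genes. The median log2 fold change of the 10 was −0.06, against 0.001 over all tested genes. The estimates were negative for 8 of the 10 and for 10794 of all 21679 tested genes. The unadjusted edgeR p was under 0.05 for 3 of the 10 and for 14.4% of all tested genes, and the fitted change was at least 1.5-fold for 2 of the 10 and for 10.6% of all.

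S100A1, known best from heart and skeletal muscle, where it acts on the calcium release channel and the calcium pump, was counted 103, 93 and 99 times in STING libraries 1, 2 and 3 and 25, 34 and 29 times in control libraries 1, 2 and 3. In CPM this is 1.34, 1.20 and 1.30 with the STING plasmid, against 0.340, 0.480 and 0.384 with the control plasmid. The lowest STING library was 2.51 times the highest control library. S100A1 rose 3.19-fold, or 1.67 on the log2 scale (SE 0.31, edgeR adjusted p = 0.0136). Permuting the CPM values over the libraries (exact, two-sided) gave p = 0.1, below which 3 against 3 cannot go. The level was low in both groups. The call was lost without control library 1 (log2 fold change 1.57, edgeR adjusted p = 0.0773), without control library 3 (1.64, edgeR adjusted p = 0.0581) and without STING library 2 (1.72, edgeR adjusted p = 0.0513).

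The S100A1 model shares exon bases with 3 others, all on the minus strand, and the strand setting of the counting is not given in the sources used here. It shares 235 bases with S100A13, 320 with the noncoding AL162258.2 and 34 with the noncoding AL162258.1. S100A13 was at 45.9, 37.5 and 37.4 CPM in the STING libraries and at 37.1, 41.1 and 41.3 CPM in the control libraries. AL162258.1 was at 1.46, 1.36 and 3.21 CPM in the STING libraries and at 3.20, 3.22 and 2.17 CPM in the control libraries. STING library 3 was thus high for both S100A1 and AL162258.1, whereas STING libraries 1 and 2 were high for S100A1 and low for AL162258.1. The sum of S100A1 and AL162258.1 was 3.29 ± 1.07 CPM with the STING plasmid and 3.26 ± 0.619 CPM with the control plasmid (SD, n = 3 each). The groups overlapped, with a two-sided exact permutation p of 0.9. Most of this sum was AL162258.1 itself, at 2.01 ± 1.04 and 2.86 ± 0.599 CPM, against 1.28 ± 0.0713 and 0.401 ± 0.0715 CPM for S100A1. The sum therefore cannot tell a steady total from the spread of AL162258.1. With both noncoding models added the sums were 3.54 ± 1.17 and 3.57 ± 0.397 CPM in the same order. Summed with all 3 models, S100A1 had a log2 fold change of 0.01 (edgeR adjusted p = 0.973), a sum that S100A13 dominates. Whether reads moved between these models was not tested, so the rise is that of the S100A1 row as the authors counted it.

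**Figure D2:**
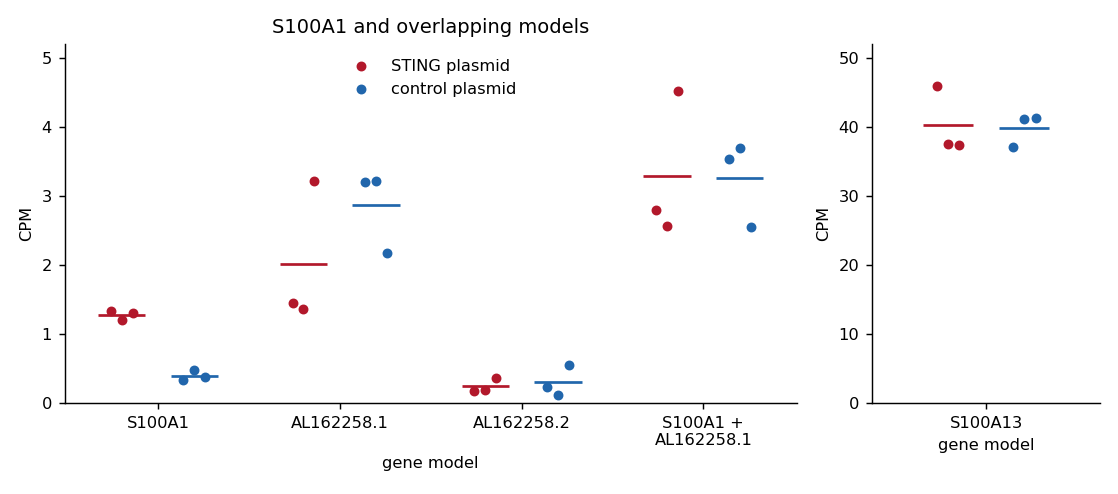
CPM of S100A1, of the noncoding models AL162258.1 and AL162258.2, of the sum of S100A1 and AL162258.1 (left panel) and of S100A13 (right panel, another scale), with a point per library and a bar at the mean of 3. S100A1 separates the groups (1.20 to 1.34 CPM with the STING plasmid, 0.340 to 0.480 CPM with the control plasmid). Its sum with AL162258.1, most of which is AL162258.1, does not.

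S100A16, a widely expressed member of the family, was at 136, 127 and 120 CPM in STING libraries 1, 2 and 3 and at 148, 156 and 148 CPM in control libraries 1, 2 and 3. All STING libraries lay below all control libraries, the closest being 1.09 times apart. It fell to 0.845 of the control level, a log2 fold change of −0.24 with a standard error of 0.052 (edgeR adjusted p = 0.0294). No annotated gene model shares bases with it. The two-sided exact permutation p was 0.1. The estimate was negative under all 16 alternatives and ranged from −0.29 to −0.18. The adjusted p was above 0.05 without control library 1, 2 or 3 (edgeR adjusted p of 0.113, 0.180 and 0.109, log2 fold changes of −0.26, −0.22 and −0.25) and without STING library 2 or 3 (edgeR adjusted p of 0.116 and 0.121, log2 fold changes of −0.24 and −0.20). It was 0.0081 without STING library 1 (log2 fold change −0.29, edgeR adjusted p). With the replicate number as a block the edgeR adjusted p was 0.0906.

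S100A4, which binds the myosin heavy chain MYH9 and is linked to cell motility and metastasis, was at 5.18, 4.26 and 6.38 CPM in the STING libraries and at 5.76, 8.10 and 7.57 CPM in the control libraries. The groups overlapped through STING library 3 and control library 1. S100A4 had a log2 fold change of −0.44 (SE 0.17) and did not pass the test (edgeR unadjusted p = 0.0187, edgeR adjusted p = 0.220). S100A3, best known from hair cuticle, lies inside the span of S100A4 on the same strand without sharing exon bases, and was at 2.68, 1.69 and 2.38 CPM with the STING plasmid and 2.69, 3.06 and 1.46 CPM with the control plasmid (edgeR adjusted p = 0.936). The sum of both genes was 7.53 ± 1.44 CPM with the STING plasmid and 9.55 ± 1.43 CPM with the control plasmid (SD, n = 3 each, two-sided exact permutation p = 0.2).

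S100B was barely detected. It was counted 11, 4 and 5 times in the STING libraries and 11, 19 and 25 times in the control libraries, so the highest STING library equalled the lowest control library in counts. In CPM the groups were 0.143, 0.0517 and 0.0658 with the STING plasmid against 0.150, 0.268 and 0.331 with the control plasmid, which parts them by a factor of 1.05. The fitted log2 difference of S100B was −1.50 (SE 0.75) and did not pass (edgeR adjusted p = 0.382). On the log2(FPKM + 0.1) scale in limma it was −0.61 (adjusted p = 0.299). GFAP, the other classical astrocyte marker, was at 21.5 ± 3.88 CPM with the STING plasmid and 39.1 ± 3.98 CPM with the control plasmid (SD, n = 3 each, edgeR adjusted p = 0.033). Of the 11 astrocyte and glioma markers GFAP alone was called, beside 1.49% of all tested genes. The estimates were negative for 10 of the 11 and for 10794 of all 21679 tested genes. SLC1A3 had a log2 fold change of −0.01 (edgeR adjusted p = 0.957) and ALDH1L1 one of 0.16 (edgeR adjusted p = 0.835). Markers of melanocytes and Schwann cells, which also express S100B, summed to 2.38 to 3.07 CPM with the STING plasmid and 2.03 to 3.996 CPM with the control plasmid, with 0 of 6 at an average of 1 CPM. Neuron markers summed to 478 to 531 CPM and 509 to 540.3 CPM, and keratinocyte markers to 30.7 to 33.6 CPM and 30.3 to 36.0 CPM, each with the STING plasmid before the control plasmid. Most of the neuron sum was NEFL (377 and 392 CPM) and TUBB3 (127 and 129 CPM), in the same order of groups. RBFOX3, SYP and SYN1 averaged under 1 CPM in both groups. Most of the keratinocyte sum was KRT10. Over all genes, a count of 4 occurred 1.97 to 2.29 times as often per library as the average of 3 and 5, so counts this small may not be single independent reads.

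The abundant members differed little between the groups. The log2 fold changes were −0.03 for S100A6 (95% interval −0.16 to 0.10), −0.03 for S100A10 (−0.13 to 0.07), −0.09 for S100A11 (−0.19 to 0.01), −0.01 for S100A2 (−0.17 to 0.16) and 0.01 for S100A13 (−0.14 to 0.17). Their edgeR adjusted p-values were 0.924, 0.859, 0.437, 0.986 and 0.971 in the same order. S100A13 takes part in the release of FGF1 from cells, and S100A2 is a p53-binding member best known from epithelia. The sign of S100A2, S100A6, S100A10 and S100A13 turned under at least 1 alternative each. S100A6 shares 23 exon bases with the antisense model BX470102.1, at 1.93 ± 0.101 CPM with the STING plasmid and 2.18 ± 0.367 CPM with the control plasmid, far below S100A6 itself. S100A11 shares bases, though no exon bases, with the antisense model AL450992.1, which had 0 to 13 counts a library.

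**Figure D3:**
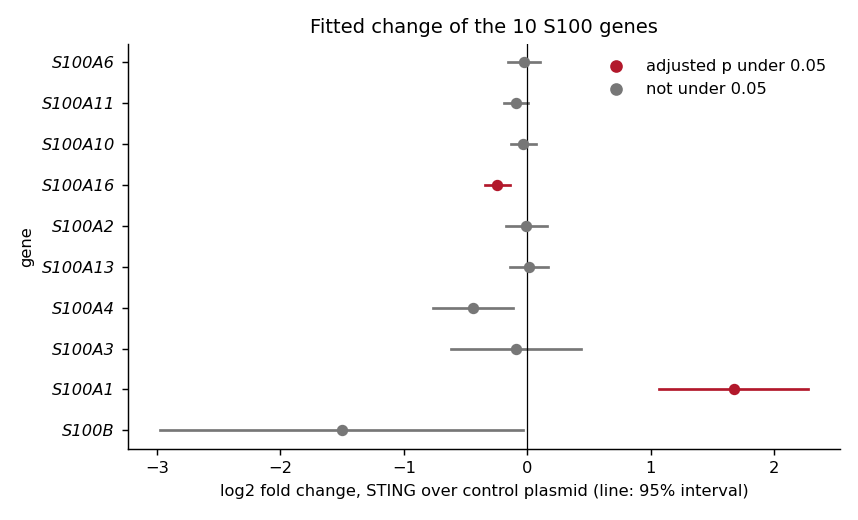
Fitted log2 fold change (STING over control plasmid) of each S100 gene, with a line for its 95% interval and red for an adjusted p under 0.05. S100A1 stands at 1.67 and S100A16 at −0.24, and the interval of S100B reaches from −2.98 to −0.03 at 4 to 25 counts a library.

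STING library 1 had the highest CPM of its group for 9 of the 10 genes and control library 1 the lowest of its group for 9 of the 10. Of all tested genes 35.9% were highest of their group in STING library 1 and 33.0% lowest in control library 1. Over S100A2, S100A6, S100A10, S100A11, S100A13 and S100A16 the median log2 deviation from the group mean was 0.09, −0.05 and −0.04 in STING libraries 1, 2 and 3 and −0.10, 0.05 and 0.04 in control libraries 1, 2 and 3. S100A6 was at 742, 635 and 664 CPM with the STING plasmid and 633, 717 and 729 CPM with the control plasmid. S100A10 was at 169, 155 and 155 CPM against 154, 170 and 165 CPM, and S100A2 at 69.7, 69.5 and 69.4 CPM against 58.8, 75.4 and 75.4 CPM, each with the STING plasmid before the control plasmid. Control library 1 was the lowest of all 6 libraries for S100A10, and it stood apart for S100A2. The family took 0.143%, 0.129% and 0.130% of all counts in the STING libraries and 0.126%, 0.143% and 0.142% in the control libraries, without separation of the groups. The S100 models are short and rich in GC, with a GC content of 51.9% to 60.2% and a longest transcript of 594 to 2621 bases, against medians of 47.9% and 2831 bases over all tested genes. After the trends with GC content and length were removed from each library, the log2 fold change of S100A16 was −0.18 (edgeR adjusted p = 0.0286) and that of S100A1 1.74 (edgeR adjusted p = 0.0103).

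**Figure D4:**
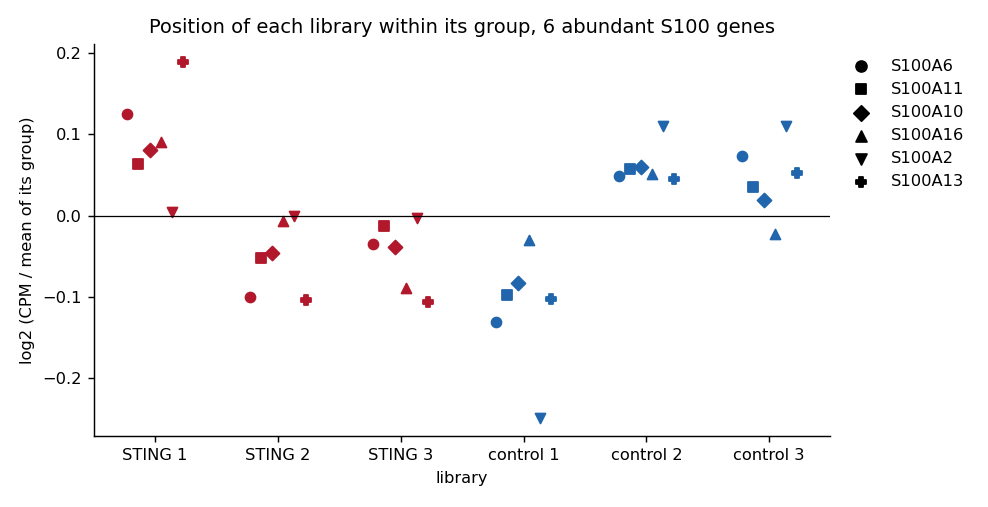
Log2 ratio of each library's CPM to the mean of its own group for the 6 abundant S100 genes (symbols), STING libraries in red and control libraries in blue. STING library 1 lies at or above its group mean for all 6 genes and control library 1 below it for all 6.

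Other S100 genes were scarce. Of 11 further family members 8 were in the tables, 6 could be tested and 0 passed (none in limma-voom either, nor in DESeq2, which gave an adjusted p for S100Z alone, and 0 reached an unadjusted p of 0.05 in edgeR). In edgeR 1.49% of all tested genes were called and 14.4% had an unadjusted p under 0.05. S100Z was the highest of them at 3.61 ± 0.0975 CPM with the STING plasmid and 3.22 ± 0.415 CPM with the control plasmid (SD, n = 3 each, edgeR adjusted p = 0.747). S100A7 and S100A12, which belong to skin and to granulocytes, had 0 counts in all 6 libraries. S100A5, S100A14 and S100P averaged under 1 CPM in both groups, with edgeR adjusted p-values of 0.995, 0.981 and 0.672.

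S100A8 and S100A9, the subunits of calprotectin, an abundant protein of neutrophils and monocytes, varied widely within each group. S100A8 was counted 0, 22 and 19 times in STING libraries 1, 2 and 3 and 0, 72 and 57 times in control libraries 1, 2 and 3. S100A9 was counted 9, 39 and 36 times in the STING libraries and 7, 119 and 194 times in the control libraries. The library numbered 1 was the lowest of each group for both genes, and neither gene passed the test (edgeR adjusted p = 0.769 and 0.601). Of the 7 myeloid markers all were in the tables and 0 were at 0 in all libraries. LYZ and PTPRC, named after their values were seen, were also lowest in the library numbered 1 of each group, LYZ at 0.299, 0.789 and 0.934 CPM in the STING libraries and 0.190, 4.05 and 2.69 CPM in the control libraries, and PTPRC at 0.937, 2.47 and 3.08 CPM against 2.12, 7.64 and 4.66 CPM in the control libraries. CD68 ran the other way, at 34.3, 18.7 and 32.4 CPM in the STING libraries and 24.6, 19.5 and 17.3 CPM in the control libraries, with library 1 the highest of each group. CSF1R was highest of its group in STING library 3 (1.71 CPM) and control library 1 (1.59 CPM). CD14 was lowest of its group in STING library 2 (0.763 CPM) and control library 3 (0.940 CPM). ITGAM was lowest of its group in STING library 2 (0.233 CPM) and control library 1 (0.150 CPM), the latter being the lowest of all libraries. AIF1 was at or under 0.240 CPM, with 0 counts in STING libraries 1 and 3 and in control library 1. The summed level of the 7 markers, most of it CD68, was 24.2 to 39.8 CPM with the STING plasmid and 27.7 to 34.3 CPM with the control plasmid. The part of blood-cell transcripts in the values of S100A8 and S100A9 was not tested.

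**Figure D5:**
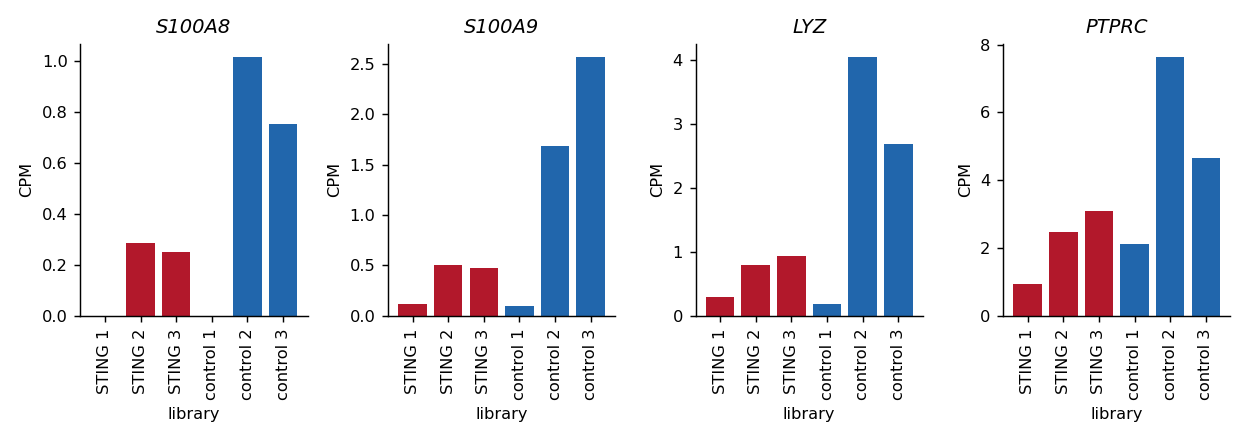
CPM of S100A8, S100A9, LYZ and PTPRC in each library (bars from 0), STING libraries in red and control libraries in blue. The libraries numbered 1 of both groups are the lowest of their group for all 4 genes, and control libraries 2 and 3 are the highest of all, at 4.05 and 2.69 CPM for LYZ.

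Among 28 tested binding partners of S100 proteins 1 fell, 0 rose and 27 missed the threshold, and the median of the 28 was −0.04 on the log2 scale, beside 1.49% called and 0.890% lower over all tested genes. Of the 28 estimates 22 were negative, and 10 had an unadjusted edgeR p under 0.05, against 14.4% of all tested genes. Negative estimates numbered 10794 among all 21679 tested genes. MYH9, the nonmuscle myosin heavy chain that S100A4 binds, was at 1248, 1177 and 1182 CPM with the STING plasmid and 1359, 1367 and 1379 CPM with the control plasmid. It fell by 0.19 on the log2 scale (SE 0.040, edgeR adjusted p = 0.0313). The call was lost in edgeR without control library 1, 2 or 3 (adjusted p of 0.141, 0.179 and 0.172), without STING library 2 or 3 (0.105 and 0.111), with total-count scaling (0.053), with the GC and length correction (0.0501) and with the replicate block (0.153). The log2 fold change of MYH9 was −0.11 with the GC and length correction and −0.19 with the block. CAPZB, NUCB1 and ANXA11 had log2 fold changes of −0.19, −0.20 and −0.20 with edgeR adjusted p-values of 0.0553, 0.0587 and 0.0697. Each of these 3 genes passed in DESeq2 with all libraries kept (adjusted p of 0.0024, 0.0042 and 0.0087), and in edgeR with no filter, with the stricter filter and without STING library 1 (0.0122, 0.0301 and 0.0255). NUCB1 had a log2 fold change of −0.13 with the GC and length correction.

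The direct partners of the most abundant members did not pass the test in the main edgeR fit. ANXA2, the partner of S100A10, was at 1689 ± 64.2 CPM with the STING plasmid and 1846 ± 53.2 CPM with the control plasmid (SD, n = 3 each, log2 fold change −0.13, edgeR adjusted p = 0.153). It passed under 2 of 15 alternatives, DESeq2 (adjusted p = 0.0275) among them. AHNAK, a giant scaffold protein bound by the S100A10 and ANXA2 complex, had a log2 fold change of −0.12 (edgeR adjusted p = 0.201). ANXA1, the partner of S100A11, was at 675 ± 40.1 and 648 ± 7.45 CPM (log2 fold change 0.06, edgeR adjusted p = 0.641), with the STING plasmid given first, and CACYBP, the partner of S100A6, had one of −0.02 (edgeR adjusted p = 0.896).

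Of 11 candidate cell-surface receptors and co-receptors 0 rose, 1 fell and 10 did not pass, and the median of the 11 was −0.13 on the log2 scale, beside 1.49% called and 0.890% lower over all tested genes. Of the 11 estimates 10 were negative, and 2 had an unadjusted edgeR p under 0.05, against 14.4% of all tested genes. Negative estimates numbered 10794 among all 21679 tested genes. GPC1, a heparan sulfate proteoglycan, was at 69.0 ± 3.43 CPM with the STING plasmid and 98.9 ± 4.05 CPM with the control plasmid (SD, n = 3 each, log2 fold change −0.52, SE 0.053, edgeR adjusted p = 0.000125), and it passed under all 15 alternatives. AGER, the best known S100 receptor, averaged 1.55 ± 0.437 CPM with the STING plasmid and 1.82 ± 0.732 CPM with the control plasmid (edgeR adjusted p = 0.825). BSG, SCARB1 and TLR4 had log2 fold changes of −0.17, −0.15 and −0.13 (edgeR adjusted p of 0.0792, 0.353 and 0.399). BSG passed in DESeq2 (adjusted p = 0.0047), and in edgeR with the stricter filter (0.0274) and without STING library 1 (0.0064), and its log2 fold change was −0.10 with the GC and length correction. That correction gave −0.092 for SCARB1, and TLR4 was at −0.070 without control library 1 and at −0.068 without STING library 1.

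Of 41 tested EF-hand calcium proteins outside the family 0 rose, 2 fell and 39 did not pass, and the median of the 41 was −0.04 on the log2 scale, beside 1.49% called and 0.890% lower over all tested genes. Of the 41 estimates 29 were negative, and 10 had an unadjusted edgeR p under 0.05, against 14.4% of all tested genes. Negative estimates numbered 10794 among all 21679 tested genes. The actin crosslinkers ACTN4 and ACTN1 fell, by 0.20 (SE 0.041, edgeR adjusted p = 0.0224) and by 0.18 (SE 0.042, edgeR adjusted p = 0.0417) on the log2 scale. ACTN4 was at 999 ± 37.2 CPM with the STING plasmid and 1151 ± 11.9 CPM with the control plasmid (SD, n = 3 each). Both calls were lost without control library 1, 2 or 3 (edgeR adjusted p of 0.138, 0.158 and 0.109 for ACTN4 and 0.160, 0.188 and 0.197 for ACTN1) and without STING library 2 or 3 (0.0839 and 0.081 for ACTN4, 0.134 and 0.127 for ACTN1). The replicate block gave edgeR adjusted p-values of 0.119 for ACTN4 and 0.167 for ACTN1, and total-count scaling 0.0789 for ACTN1, which also missed in limma-voom (adjusted p = 0.0537). CAPNS1 and SPARC had log2 fold changes of −0.20 and −0.15 (edgeR adjusted p of 0.0716 and 0.112), and both passed in DESeq2 (adjusted p of 0.0063 and 0.014), and in edgeR with the stricter filter (0.022 and 0.0487) and without STING library 1 (0.0124 and 0.0333). With the GC and length correction the log2 fold change was −0.13 for ACTN4 (edgeR adjusted p = 0.0214) and −0.13 for CAPNS1. Of 20 tested neighbours of the S100 cluster on chromosome 1 none passed in edgeR, DESeq2 or limma-voom, and 1 had an unadjusted edgeR p under 0.05 (CREB3L4, log2 fold change −0.30, and −0.18 without control library 1). In edgeR 1.49% of all tested genes were called and 14.4% had an unadjusted p under 0.05. TDRKH, SLC27A3 and DENND4B had log2 fold changes of 0.12, −0.21 and 0.07 (edgeR adjusted p of 0.406, 0.452 and 0.573), and the GC and length correction gave −0.13 for SLC27A3 and 0.15 for DENND4B.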

How the data were processed

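RNA was extracted with Trizol and sequenced from TruSeq RNA libraries, per the labels' protocols. Bowtie 0.12.2 is listed among the submitters' processing notes. How reads were assigned to genes, and with which strand setting, is not given in the sources used here. The authors deposited a table per library with read counts and FPKM by Ensembl gene, per the file headers. A test on these counts was run in edgeR 4.0.16 under R 4.3.3 (filterByExpr, TMM factors, robust quasi-likelihood fit of both groups without covariates, Benjamini-Hochberg adjustment over all tested genes, threshold 0.05). Standard errors are the log2 fold change over the root of F. Coordinates matched GENCODE v29 (GRCh38): 89.8% of 40903 shared identifiers agreed at the start or end within 1 base. Overlaps were taken from its exons. The alternatives were other scalings and filters, DESeq2 1.42.0, limma-voom (limma 3.58.1), limma on log2(FPKM + 0.1), the replicate block, each library left out, sums of overlapping models, and, added after the data were seen, offsets for GC content and length. The fit was tested on simulated data. No replicate pair agreed within sampling noise (chi-square per gene 11.7 to 23.0). Besides the 10 members and STING1, the text names all other S100 genes of a list, the 4 tested genes with the smallest p of each of 4 lists, and ANXA2, ANXA1, AHNAK, CACYBP, MYH9, AGER and overlapping models, and 1 further gene of the rule is not reported here; cell markers were listed too, and those named from them were chosen after their values were seen. Members and lists were chosen with earlier results of these data known.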

Additional observations from a re-analysis of the deposited data

How the results depend on the processing

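S100B and control S100A1 rest on 20 to 88 counts a group, and what part of their error is counting error was not tested. The abundant members are limited by the spread between libraries. The direction held under all alternatives for S100A4, S100A11, S100A16, S100B and STING1, and the call of STING1 held under all 15. For S100A1 it held in each fit, though at 0.01 in the sum with all overlapping models. In the sum with AL162258.1 and AL162258.2 alone, which was not fitted, it did not hold (3.54 ± 1.17 CPM with the STING plasmid, 3.57 ± 0.397 CPM with the control plasmid).

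Of the 10 members 2 were called. The number was 1 with DESeq2 (S100A16, where S100A1 and S100B had no adjusted p), 1 with limma-voom and 1 with the replicate block (both S100A1), and 0 to 2 with 1 library left out. Over all genes 324 were called, 1001 with DESeq2, 137 with limma-voom, 120 with the replicate block, 686 with the stricter filter, and 60 to 741 with 1 library left out. Total-count scaling called 246 higher and 138 lower. For the binding partners (1 called) the number was 6 with DESeq2, 2 with GC and length offsets, 4 with no filter, 0 with the replicate block, 5 with the stricter filter, 0 with total-count scaling, 3 with upper-quartile scaling, and 0 to 5 with 1 library left out. For the receptors (1 called) it was 2 with DESeq2, 2 with the stricter filter, and 1 to 2 with 1 library left out. For the EF-hand proteins (2 called) it was 7 with DESeq2, 1 with limma-voom, 0 with the replicate block, 5 with the stricter filter, 1 with total-count scaling, and 0 to 8 with 1 library left out. The cause of these shifts was not tested, other than that fewer libraries or genes entered some fits. S100A1 did not pass in limma on log2 FPKM (log2 fold change 1.17, adjusted p = 0.101) and S100A16 in neither that (−0.22, adjusted p = 0.170) nor limma-voom (−0.24, adjusted p = 0.0676).

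None of the genes whose log2 fold change turned sign was called with all libraries. S100A2 was 0.045 with GC and length offsets, 0.024 in limma on FPKM, 0.0025 in limma-voom, 0.0018 with the replicate block and 0.023 with total-count scaling, and −0.12 to 0.051 with 1 library left out. S100A6 was 0.057 with GC and length offsets, 0.0031 with total-count scaling and −0.093 to 0.021 with 1 library left out. S100A10 was 0.031 with GC and length offsets. With 1 library left out S100A3 ranged from −0.35 to 0.12, S100A13 from −0.091 to 0.063, S100A5 from −0.22 to 0.25, S100A14 from −0.74 to 0.33 and AGER from −0.44 to 0.14. CACYBP was 0.0075 with total-count scaling.

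The deviations of same-numbered libraries from their group means correlated at 0.125, 0.011 and 0.0078 over 14843 genes, so the replicate numbers were not taken to pair the libraries, and not every library correlated best with its own number. Besides S100A16, the replicate block ended the calls of MYH9, ACTN4 and ACTN1 and changed no other call of the genes refitted.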

Other observations

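Genes of the epidermal differentiation complex that carry an S100-type domain fused to long repeats lie beside the S100 genes on chromosome 1. Of 7 listed, 6 were in the tables and 4 could be tested, and none passed in edgeR, beside 1.49% of all tested genes. FLG, which encodes filaggrin of the skin barrier, was the highest at 23.5 ± 1.39 CPM with the STING plasmid and 23.3 ± 0.806 CPM with the control plasmid (SD, n = 3 each, edgeR adjusted p = 0.983). HRNR, FLG2 and TCHH averaged 1.98, 1.44 and 1.68 CPM with the STING plasmid and 1.57, 1.11 and 1.59 CPM with the control plasmid. RPTN had 0 counts in all 6 libraries. Among the keratinocyte markers KRT10 was above FLG, at 28.9 ± 1.36 CPM with the STING plasmid and 29.9 ± 2.22 CPM with the control plasmid. SFN averaged 2.10 and 2.09 CPM in the same order. KRT5 and KRT14 were low, KRT5 at 0.438 ± 0.230 CPM with the STING plasmid and 0.509 ± 0.210 CPM with the control plasmid. KRT14 was at 0.343 ± 0.146 CPM and 0.254 ± 0.208 CPM in the same order.

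The processed copies S100A11P1 and S100A11P2 on chromosome 7 were counted 7, 10 and 2 times and 2, 1 and 1 times in the STING libraries, and 0, 0 and 2 times and 3, 7 and 2 times in the control libraries, far below S100A11 itself.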
